A study of Mus musculus with 9 samples.

Results

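Stable expression of beta-catenin in a mouse pancreatic cancer cell line was compared with the control line on 6 of the 9 arrays of the series, 3 arrays of beta-catenin expressing cells and 3 of control cells, and the difference was described gene by gene beyond the known Wnt targets. The line, 170#3, is of mixed C57BL6 x FVB x 129Sv background. All groups were grown as monolayers in DMEM with 10% FBS, and each carried a stable transfection, of a control, of beta-catenin or of ICAT. The labels call the samples of a group independent or biological replicates, and do not say whether a transfected line was 1 clone or a pool, which promoter drove the transgene, or whether the samples came from separate transfections. The p-values therefore measure the spread between these samples. Members of the comparison were all genes with 1 chosen probe set at log2 5 or above on at least 3 of the 9 arrays, 15235 of 18193 genes. The other 2958 genes were not tested.

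Beta-catenin links cadherins to the cytoskeleton at cell junctions and, when it is not degraded, enters the nucleus and acts as a co-activator of TCF/LEF factors, the output of canonical Wnt signalling. ICAT is a small inhibitor that occupies the site where beta-catenin would meet TCF. In the pancreas, beta-catenin signalling has roles in development, in acinar regeneration and in tumour formation, and pancreatic cancer cells respond to growth factors of the EGF and TGF-beta families and to the matrix around them.

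Arrays of a group were close to each other, with correlations over genes of at least 0.998 between control arrays and 0.997 between beta-catenin arrays, against 0.9676 to 0.9697 between control and beta-catenin arrays. On the log2 scale the SD of a typical gene (the median over genes) was 0.0567 for control, 0.0746 for beta-catenin and 0.121 for ICAT arrays. Ctnnb1 itself, measured near its 3′ end, rose 1.15-fold (adjusted p = 0.0353 in limma), a call that was lost when any 1 of the 6 arrays was left out or arrays were centred. Such a probe set would miss a transfected coding sequence without that end, so it does not check the labels. The mean over 9 pancreatic epithelial markers lay between 6.55 and 6.61 in control and between 6.59 and 6.64 in beta-catenin arrays. The E-cadherin gene Cdh1 stayed under log2 5 on all arrays, and of 7 tested epithelial markers 1 was called, the pancreatic factor gene Pdx1, which rose 1.39-fold (adjusted p = 0.000262). Of 10 tested fibroblast and stromal markers 3 rose (Col1a1, Pdgfra and Acta2) and 2 fell (Col1a2 and Col3a1), and the mean over the 12 on the array lay between 8.09 and 8.14 in control and between 8.23 and 8.41 in beta-catenin arrays. Immune markers (mean over 7 between 5.63 and 5.86) and endothelial markers (mean over 6 between 5.45 and 5.66) had lower means in both groups. Ptprc, Itgam, Cdh5 and Vwf were below the filter. The part of other cell types in the results was not tested.

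Of the 15235 tested genes 34.9% were called at an adjusted p under 0.05 (limma with Benjamini-Hochberg adjustment over all tested genes), 19.6% higher and 15.4% lower in beta-catenin cells. Beta-catenin and control arrays did not overlap for 54.1% of genes, 27.8% with the beta-catenin arrays above and 26.3% below. Most calls were small, since 56.9% of the increases and 65.3% of the decreases were under 0.5 on the log2 scale. Changes of at least 2-fold were called for 458 genes higher (3.01%) and 246 lower (1.61%), of at least 4-fold for 102 and 56, and of at least 16-fold for 12 and 8. The split between directions depended on scaling. The median difference over all genes was -0.03. When each array was centred on its median over the tested genes, 2571 genes were higher and 3205 lower, against 2981 and 2340 as deposited. These medians were 7.77, 7.76 and 7.78 on control and 7.81, 7.84 and 7.84 on beta-catenin arrays. Centring therefore lowered every difference and moved the median difference further down, so it is another scaling and not a correction of that offset. Where a gene with a change of at least 2-fold had other probe sets above the filter, at least 1 of them was called the same way for 195 of 237 increases and 126 of 133 decreases. None was called in the opposite direction. In whole cultures, fewer cells with a transcript and less transcript per cell cannot be told apart.

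Genes that crossed the limit of log2 5 were fewer. In 15 genes all control arrays lay under log2 5 and all beta-catenin arrays at 6 or above, and in 7 genes the reverse held. The gained genes included Sprr1b, a structural protein of the cornified envelope of squamous epithelia, Nrep, Tubb2b and Uchl1, which are best known from neurons, Lhx2, a LIM-homeobox factor, Hdac9, a class II histone deacetylase, Vegfc, a lymphangiogenic growth factor, and Il6. The others were Ces1g, Cyp7b1, Sec16b, Serpinb1a, Stbd1, Steap4 and Zmat1. The lost genes were Mmp13, Bhlhb9, Mfap3l, Igfbp3, Itgb8, Bnc1 and Calcrl. In ICAT cells the mean lay under log2 5 for only 3 of the 15 gained genes, Sprr1b, Lhx2 and Ces1g. The other gained genes were above the limit there too, such as Tubb2b (ICAT mean 8.56), Il6 (6.94) and Steap4 (9.86). Of the 7 lost genes 1, Calcrl, had an ICAT mean under log2 5 (4.61). Sprr1b, for example, read 4.50, 4.51 and 4.57 on the control arrays and 9.38, 9.50 and 9.69 on the beta-catenin arrays, at least 23-fold higher with control arrays set to the limit (adjusted p = 1.01e-09). Mmp13 read 8.88, 8.83 and 8.83 in control cells and 4.25, 4.39 and 4.40 in beta-catenin cells, at least 14.4-fold lower (adjusted p = 1.91e-08). That the groups do not overlap follows from how these genes were chosen, and the limit is a chosen one, as no detection calls were used.

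**Figure D1:**
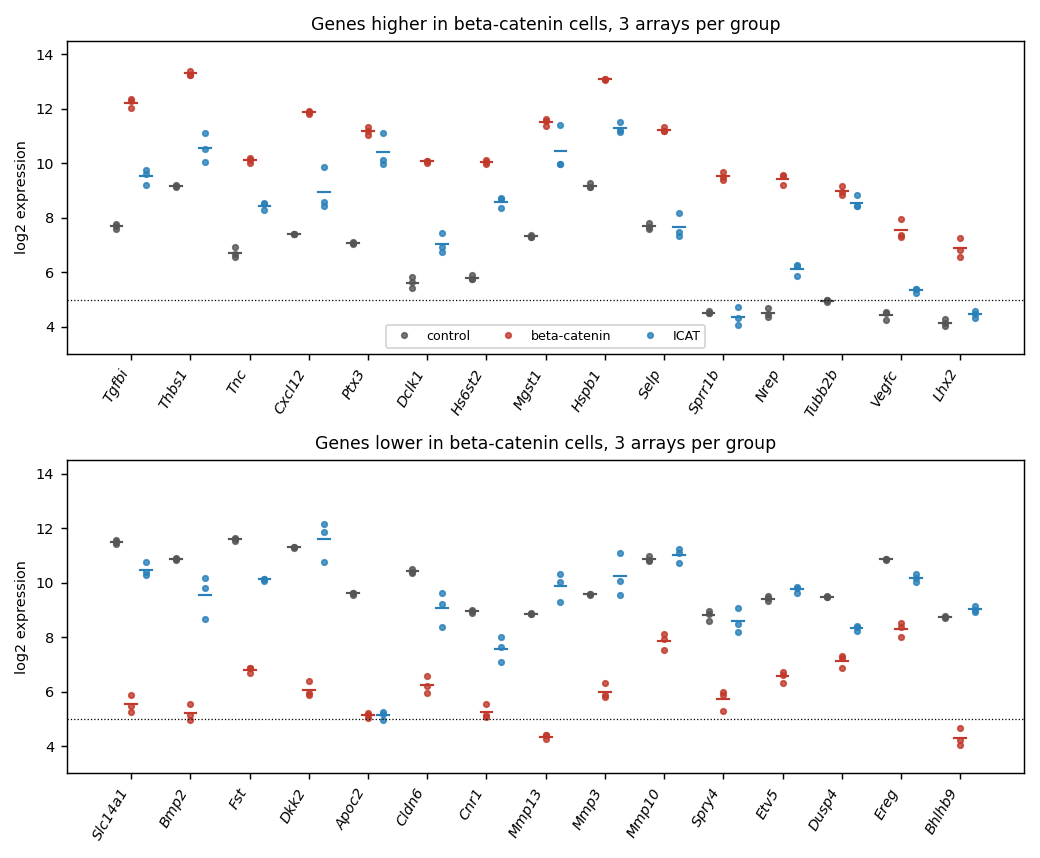
Log2 expression of 15 genes higher (upper panel) and 15 genes lower (lower panel) in beta-catenin cells, with 1 point per array, a bar at each group mean, control in grey, beta-catenin in red and ICAT in blue. The dotted line marks log2 5. Control and beta-catenin points do not overlap for any gene shown, which the choice of genes required, and ICAT points lie between, beside or beyond them depending on the gene.

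Secreted proteins that bind matrix and cell surfaces were among the largest gains. Of 41 tested matricellular and elastic fibre genes 19 rose (46.3%) and 5 fell (12.2%), against 19.6% and 15.4% of all genes. Their median log2 difference was 0.36 against -0.03 over all genes, and 10 rose at least 2-fold. The group also rose in ICAT cells, with a median of 0.86. By the contrast of the 2 lines 9 of the 41 genes were higher and 16 lower in beta-catenin cells. Tgfbi, a TGF-beta-induced matrix protein that binds collagens and integrins, read 7.58, 7.70 and 7.78 in control and 12.35, 12.30 and 12.02 in beta-catenin cells. Thbs1, thrombospondin 1, read 9.16, 9.13 and 9.22 against 13.40, 13.26 and 13.25. The groups were far apart for both genes, and the increases were 23.2-fold (adjusted p = 1.21e-09) and 17.6-fold (adjusted p = 3.33e-08). Tnc, tenascin C, rose 10.5-fold, and the basement membrane and elastic fibre protein gene Fbln2 7.47-fold. Thbs3 rose 3.56-fold, the CCN family gene Ccn4 3.27-fold, and the collagen and elastin cross-linking enzyme genes Loxl1 and Lox 2.85-fold and 2.81-fold. The largest decrease in the group was that of Efemp1, a fibulin, which fell 3.54-fold from 10.58, 10.63 and 10.58 to 8.73, 8.86 and 8.72. Efemp1 moved the other way in ICAT cells, at 11.86, 12.11 and 11.77.

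Collagen chains went both ways. Of 34 tested chains 10 rose (29.4%) and 6 fell (17.6%), against 19.6% and 15.4% of all genes. Col6a3, which forms beaded filaments, rose 5.44-fold, the fibril-associated Col12a1 3.68-fold, the network chain Col4a5 3.02-fold and the fibrillar Col5a2 2.96-fold. The 2 chains of type I collagen parted. Col1a1 was 6.26, 6.09 and 6.0 in control and 7.45, 7.35 and 6.95 in beta-catenin cells, a 2.20-fold increase (adjusted p = 0.00151), whereas Col1a2 was 12.14, 12.19 and 12.20 in control and 10.87, 10.87 and 10.60 in beta-catenin cells, a 2.63-fold decrease (adjusted p = 3.48e-07). Both other Col1a2 probe sets fell too, and the other Col1a1 probe set rose. Col3a1 fell 1.36-fold on the chosen probe set and rose on its other one. Among type IV chains Col4a1 and Col4a2 fell by 0.86 and 0.68 on the log2 scale. With the median of all its probe sets Col12a1 was no longer called (log2 difference 0.17, adjusted p = 0.0914).

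The matrix metalloproteinases, secreted zinc proteases that cleave matrix, changed in both directions, and members of 1 genomic cluster fell. Of 41 tested MMP, ADAMTS and inhibitor genes 15 rose (36.6%) and 10 fell (24.4%), against 19.6% and 15.4% of all genes. At least 2-fold changes were 5 of each. Mmp13, Mmp3, Mmp10 and Mmp1b, collagenases and stromelysins whose genes lie in a cluster on chromosome 9, all fell. Mmp3 read 9.55, 9.58 and 9.57 in control and 5.88, 5.81 and 6.31 in beta-catenin cells and fell 11.8-fold (adjusted p = 2.46e-06). Mmp10 read 10.82, 10.80 and 10.96 against 7.52, 7.91 and 8.10 and fell 8.10-fold (adjusted p = 5.71e-08). Every beta-catenin array lay far below the control arrays for both genes. Mmp1b was dim, with a control mean of 5.19 and a beta-catenin mean of 3.90. Mmp8 of the same cluster was near log2 5 in both groups (log2 difference -0.28, adjusted p = 0.102, or 0.0461 without beta-catenin replicate 1), and Mmp7 was not called (-0.09, adjusted p = 0.624). In ICAT cells Mmp13 rose (log2 difference 1.03, adjusted p = 0.00147) and Mmp3 and Mmp10 were not called. The gelatinase gene Mmp2 went the other way, from 8.01, 8.06 and 8.24 to 10.96, 10.95 and 10.86, a 7.07-fold increase (adjusted p = 1.18e-08). Mmp11 rose 3.47-fold, the aggrecanase gene Adamts5 3.83-fold and the inhibitor gene Timp3 2.13-fold. The plasminogen activator gene Plau fell by 1.49 and its receptor gene Plaur by 0.90 on the log2 scale.

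The promoters of the 3 largest decreases in this cluster each hold the letters TGAGTCA on 1 strand. These letters are the core that AP-1 dimers of FOS and JUN proteins bind. Among genes for AP-1 subunits Fosl1 and Jun fell and Junb and Fosl2 rose, and a link to these promoters was not tested. Each line gives the 250 bases before the first listed start site on GRCm38.p6 (RefSeq), 5′ to 3′ on the gene's strand, with matches on either strand in capitals. Sprr1a, a cornified-envelope gene that rose, is shown beside them.
Mmp13 (chr9:7272264-7272513, + strand): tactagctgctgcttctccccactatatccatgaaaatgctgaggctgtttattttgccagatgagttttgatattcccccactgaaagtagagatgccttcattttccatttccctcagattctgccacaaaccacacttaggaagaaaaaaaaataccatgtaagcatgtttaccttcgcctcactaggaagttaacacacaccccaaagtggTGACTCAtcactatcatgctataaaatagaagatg
Mmp3 (chr9:7445572-7445821, + strand): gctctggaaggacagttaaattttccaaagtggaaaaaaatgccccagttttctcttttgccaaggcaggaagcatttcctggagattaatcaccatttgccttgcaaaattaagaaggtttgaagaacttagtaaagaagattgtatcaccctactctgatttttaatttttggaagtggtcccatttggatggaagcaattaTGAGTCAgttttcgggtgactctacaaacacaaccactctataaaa
Mmp10 (chr9:7502092-7502341, + strand): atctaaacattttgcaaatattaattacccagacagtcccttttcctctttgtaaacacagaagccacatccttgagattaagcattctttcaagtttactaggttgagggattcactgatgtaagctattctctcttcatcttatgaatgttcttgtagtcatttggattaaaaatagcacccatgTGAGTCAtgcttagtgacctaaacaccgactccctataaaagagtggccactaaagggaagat
Sprr1a (chr3:92485882-92486131, - strand): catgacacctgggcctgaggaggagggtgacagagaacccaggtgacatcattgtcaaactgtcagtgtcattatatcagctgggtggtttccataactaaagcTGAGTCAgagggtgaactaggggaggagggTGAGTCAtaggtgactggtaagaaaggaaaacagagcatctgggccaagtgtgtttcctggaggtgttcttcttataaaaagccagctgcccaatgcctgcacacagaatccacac
The match starts at -35 in Mmp13, -46 in Mmp3 and -63 in Mmp10 relative to the start site, and Sprr1a has 2, at -146 and -116. Mmp1b, which is not printed, has a match at -93. The Gbp2 promoter, of a gene that rose, is printed further below and holds the letters too. The letters occurred in 3.50% of the 12185 tested genes with a promoter sequence, in 5.41% of those that rose at least 2-fold (19 of 351) and in 7.25% of those that fell at least 2-fold (14 of 193), and in 4.43% of all 27025 promoters listed. A match is a description of these windows, and binding was not measured.

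Several genes of the BMP pathway changed by a large amount, in both directions. BMPs signal through SMAD1, SMAD5 and SMAD9, induce the Id genes, and are held back by secreted antagonists and by the inhibitory SMADs. Of 34 tested genes 11 rose (32.4%), 8 fell (23.5%) and 15 were not called, against 19.6% higher and 15.4% lower over all genes. Bmp2 read 10.84, 10.90 and 10.85 in control cells and 5.53, 5.15 and 4.97 in beta-catenin cells, a 50-fold decrease (adjusted p = 8.35e-08). Fst, follistatin, which traps activin and some BMPs, read 11.62, 11.52 and 11.61 against 6.67, 6.87 and 6.87 and fell 27.5-fold (adjusted p = 1.34e-11). Both went from bright to dim on every array. The modulator gene Bmper fell 3.14-fold, Bmp4 1.53-fold and the antagonist gene Grem1 by 0.55 on the log2 scale. In contrast Smad6, an inhibitory SMAD, rose 5.17-fold from 6.96, 7.02 and 6.94 to 9.30, 9.39 and 9.35 (adjusted p = 1.35e-08). Of the Id genes, Id2 rose 4.62-fold, Id4 3.77-fold and Id3 2.28-fold, though Id3 was not called without control replicate 1 or 2 or beta-catenin replicate 2 (adjusted p = 0.0557, 0.0504 and 0.0515). Id1 lay at 11, 10.95 and 10.96 against 11.55, 11.62 and 11.60 without overlap and was not called in the model of 9 arrays (adjusted p = 0.101), which carries the spread of the ICAT arrays (10.85, 9.38 and 9.77), but was called with the 6 arrays alone (adjusted p = 1.25e-05). Fstl1, a follistatin-like secreted protein, rose 4.23-fold, and Bambi, a decoy receptor, 1.80-fold.

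TGF-beta genes rose in 8 of 24 cases (33.3%, against 19.6% of all genes) and fell in 4 (16.7%, near the 15.4% of all genes). The ligand gene Tgfb2 read 6.68, 6.65 and 6.82 in control and 9.25, 9.28 and 9.24 in beta-catenin cells, 5.81-fold higher (adjusted p = 4.58e-08), and all 3 other probe sets rose. Pmepa1, a feedback inhibitor of SMAD signalling, rose by 1.48 on the log2 scale. The co-receptor gene Tgfbr3 fell 1.47-fold and the latent TGF-beta binding protein gene Ltbp3 1.2-fold.

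Feedback genes of the ERK pathway fell almost without exception. ERK is the last kinase of a growth factor pathway, and its activity induces its own restraints: Sprouty and SPRED proteins, which act upstream of it, and dual-specificity phosphatases, which remove the activating phosphates, along with ETS factors. Of 16 tested genes 15 fell (93.8%, against 15.4% of all genes) and 1 rose. At least 2-fold lower were 11 of them, and the median log2 difference was -1.21. Spry4 read 8.84, 8.97 and 8.59 in control and 5.30, 5.97 and 5.88 in beta-catenin cells (8.46-fold lower, adjusted p = 9.11e-07). Dusp4, a nuclear phosphatase of ERK, read 9.47, 9.47 and 9.52 against 6.85, 7.32 and 7.23 (5.11-fold lower, adjusted p = 3.47e-08). Etv5 read 9.31, 9.50 and 9.42 against 6.33, 6.73 and 6.62 (7.20-fold lower, adjusted p = 5.57e-09). None of these groups overlapped, which held for all 246 genes called at least 2-fold lower. The other probe sets, 3 for Spry4 and 2 for Etv5, fell as well. Dusp5 fell 4.19-fold, Errfi1, an inhibitor of the EGF receptor, 3.56-fold, Spry2 2.99-fold, Spred3 2.78-fold, Etv4 2.14-fold and Dusp6 2.11-fold. The exception, Spry1, rose 1.33-fold. All 16 genes were lower in beta-catenin than in ICAT cells by the contrast of the 2 lines, Spry1 included, which was higher still in ICAT cells.

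The receptors of the EGF family act upstream of ERK. Of 15 tested EGF family genes, ligands, receptors and regulators, 6 fell (40.0%), 2 rose (13.3%) and 7 were not called. Over all genes 15.4% fell and 19.6% rose. Ereg, epiregulin, read 10.86, 10.86 and 10.82 in control and 7.99, 8.35 and 8.53 in beta-catenin cells, 5.88-fold lower (adjusted p = 3.33e-08). Hbegf, heparin-binding EGF, read 10.23, 10.26 and 10.30 against 7.99, 8.12 and 8.32, 4.35-fold lower (adjusted p = 2.75e-07). Control and beta-catenin arrays did not overlap for either ligand, as for all 246 genes called at least 2-fold lower. Betacellulin (Btc) fell 1.83-fold and Lrig1, a negative regulator of the receptors, 3.03-fold. The receptor gene Erbb2 rose 1.43-fold and the ligand gene Nrg1 1.47-fold. Immediate-early transcription factors were split, with 6 of 24 higher and 9 lower. Among AP-1 subunits Fosl1 fell 2.88-fold (11.24, 11.30 and 11.27 to 9.57, 9.73 and 9.93) and Jun 2.06-fold, whereas Junb rose 2.04-fold and Fosl2 1.92-fold, and Fos was not called (log2 difference 0.02, adjusted p = 0.901). The only other Fosl2 probe set was called lower.

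Among other growth factors the VEGF family changed member by member. Vegfc, which acts on lymphatic endothelium, rose at least 5.87-fold from 4.53, 4.50 and 4.26 to 7.30, 7.39 and 7.96, and Vegfd, its closest relative, rose 3.64-fold. Vegfa, the main angiogenic member, fell 1.96-fold, from 8.62, 8.61 and 8.57 to 7.49, 7.65 and 7.74 (adjusted p = 9.65e-06). The receptor genes Pdgfra and Fgfr2 rose 4.11-fold and 2.02-fold, Csf1, the macrophage growth factor, 1.99-fold, and the HGF receptor gene Met fell 1.61-fold. In the IGF axis 4 of 16 genes rose and 6 fell. Igfbp3 fell at least 5.57-fold, and Igfbp4 rose 1.81-fold. Wnt pathway genes outside the nucleus rose more often than they fell. Of 42 tested ligands, receptors and secreted inhibitors 14 rose (33.3%, against 19.6% of all genes) and 5 fell (11.9%, against 15.4%). Among the 14 were 7 Frizzled receptors, including Fzd7 (2.21-fold) and Fzd2 (2.04-fold). Fzd6 had the largest increase, 5.20-fold, but with the median of its probe sets the difference was -0.02. Dkk2, a secreted modulator of the LRP co-receptors, fell 37.5-fold, from 11.28, 11.30 and 11.31 to 5.94, 5.87 and 6.40, and was not called in ICAT cells. Of 21 tested Wnt target genes 2 rose (Lef1 and Myc, 9.52%) and 6 fell (28.6%), and Axin2 was not called (log2 difference 0.05, adjusted p = 0.646).

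**Figure D2:**
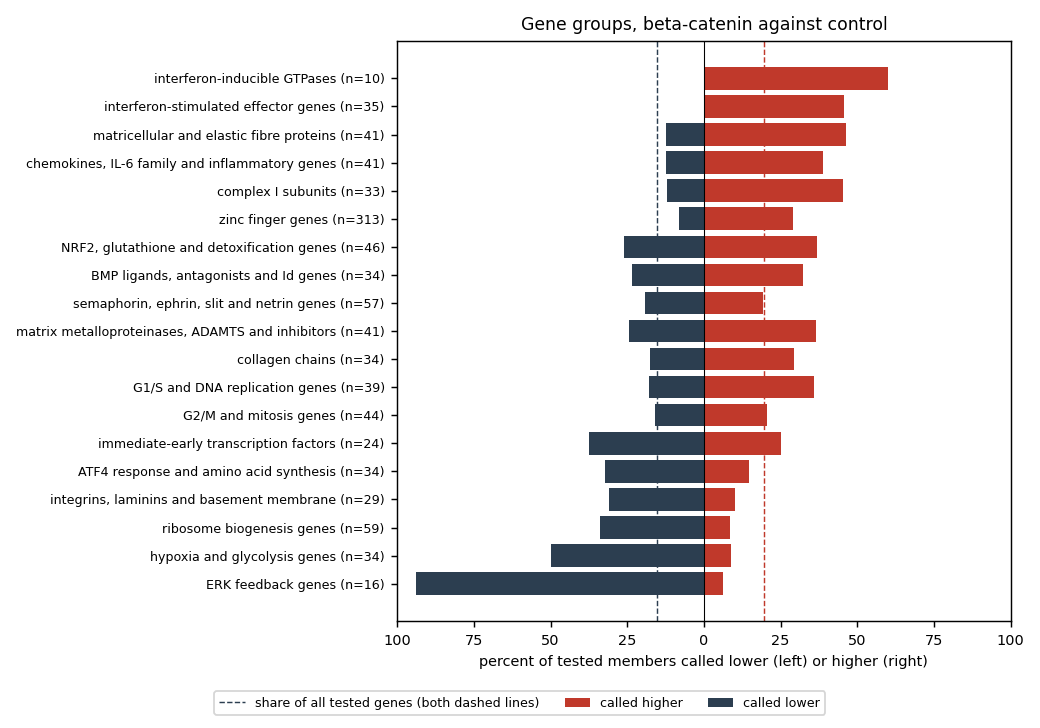
Share of the tested members of 19 gene groups that were called higher (red, to the right) or lower (dark, to the left) in beta-catenin cells, in percent, with the number tested in brackets. The dashed lines mark the shares over all tested genes, 19.6% higher and 15.4% lower. The ERK feedback genes reach 93.8% lower, and the interferon-inducible GTPases 60% higher with none lower.

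Cell contact and guidance genes changed in both directions, and several bright members fell. The claudin gene Cldn6, an embryonic tight-junction protein, read 10.49, 10.35 and 10.39 in control and 6.57, 5.95 and 6.19 in beta-catenin cells, 18.0-fold lower (adjusted p = 2.75e-07). It was also lower in ICAT cells (log2 difference -1.34). Cldn1 fell 3.13-fold. The protocadherin gene Pcdh17 fell at least 12.2-fold, while Fat4 and Pcdhb17 rose 2.12-fold and 2.06-fold. N-cadherin (Cdh2) fell 1.95-fold. Of 27 tested cadherin and protocadherin genes 7 rose (25.9%) and 5 fell (18.5%), against 19.6% and 15.4% of all genes. The desmosomal plakophilin gene Pkp2 rose 4.83-fold, from 7.28, 7.41 and 7.36 to 9.58, 9.60 and 9.69, and fell in ICAT cells (log2 difference -0.67, adjusted p = 0.000149). Apart from Pkp2, Sprr1a (12.5-fold) and Sprr1b, no keratin, claudin, desmosomal or cornified-envelope gene rose among 42 tested. With 3 higher (7.14%) and 4 lower (9.52%), this group lay below the shares over all genes in both directions. Integrin, laminin and basement membrane genes leaned lower, with 9 of 29 falling (31.0%, against 15.4% of all genes) and 3 rising (10.3%, against 19.6%). Itgb8, which activates latent TGF-beta, fell at least 3.67-fold and rose in ICAT cells. Itga6, the laminin receptor chain, fell 3.70-fold, from 10.49, 10.49 and 10.52 to 8.53, 8.58 and 8.73, and Lamb1 2.09-fold. Guidance genes as a group had shares near the background, with 11 of 57 tested genes higher (19.3%) and 11 lower (19.3%), or 8 and 12 with centred arrays, but single semaphorins, secreted or membrane-bound guidance cues, changed by a large amount. Sema6d fell 7.63-fold, from 9.34, 9.39 and 9.45 to 6.40, 6.56 and 6.42, Sema5a 5.84-fold, Sema3a 5.70-fold and Sema7a 4.64-fold, whereas Sema3c rose 2.87-fold and the receptor gene Plxna1 2.47-fold.

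Enzymes that build or modify heparan sulfate, chondroitin sulfate and related chains changed in opposite directions. Hs6st2, a 6-O-sulfotransferase, read 5.75, 5.75 and 5.89 in control and 10.14, 10.04 and 9.98 in beta-catenin cells, 19.1-fold higher (adjusted p = 2.80e-10). Sulf2, which removes 6-O-sulfate outside the cell, rose 4.59-fold and the core protein gene Gpc4 4.43-fold. Hs3st1, a 3-O-sulfotransferase, fell 4.92-fold and the core protein gene Gpc1 2.63-fold. Csgalnact1, which starts chondroitin sulfate chains, fell 9.71-fold, from 9.0, 9.13 and 9.08 to 5.62, 5.94 and 5.81, and the sulfotransferase gene Chst1 7.47-fold. In all 10 of 33 tested heparan sulfate genes rose (30.3%) and 7 fell (21.2%), against 19.6% and 15.4% of all genes. With centred arrays the counts were 10 and 10. The hyaluronidase gene Cemip rose 11.1-fold, although 1 of its other 2 probe sets was not called and the median of its probe sets differed by -0.02.

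Among secreted and surface proteins of inflammation the gains were larger than the losses. Of 41 tested chemokine, IL-6 family and inflammatory genes 16 rose (39.0%) and 5 fell (12.2%), against 19.6% and 15.4% of all genes. The median log2 difference was 0.26, against 0.62 in ICAT cells. By the contrast of the 2 lines 6 were higher and 16 lower in beta-catenin cells. Cxcl12, a chemokine of stromal cells, read 7.40, 7.40 and 7.42 in control and 11.93, 11.88 and 11.80 in beta-catenin cells, 22.1-fold higher (adjusted p = 3.27e-07). Selp, P-selectin, an adhesion receptor of platelets and endothelium, read 7.81, 7.61 and 7.65 against 11.18, 11.20 and 11.33, 11.6-fold higher (adjusted p = 4.58e-08). Both groups of arrays were tight, and Selp was not called in ICAT cells (log2 difference -0.02, adjusted p = 0.953). The endothelial markers Pecam1, Kdr and Cldn5 were not called. Il6 rose at least 4.48-fold, and the receptor chain gene Osmr, for the related cytokine oncostatin M, 7.26-fold. Against them Il34, a ligand of the CSF1 receptor, fell 3.41-fold, the prostaglandin E synthase gene Ptges 3.18-fold, and Il11 and Lif by 0.82 and 0.76 on the log2 scale. The pentraxin gene Ptx3, a soluble pattern recognition protein, rose 17.3-fold, from 7.04, 7.06 and 7.12 to 11.34, 11.19 and 11.05, and its other probe set was not called.

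Interferon-induced genes were called only in the upward direction, by less than in ICAT cells for many of them. Of 10 tested interferon-inducible GTPases, which act on vacuoles of intracellular pathogens, 6 rose, all at least 2-fold, and of 35 other interferon-stimulated genes 16 rose. Over all tested genes 19.6% rose and 15.4% fell. At an unadjusted p under 0.05 the GTPases had 8 higher and 0 lower and the 35 genes 16 higher and 1 lower (limma). With arrays centred on their medians 15 of the 35 rose and 1 fell. Gbp2 read 6.45, 6.47 and 6.6 in control and 9.02, 9.33 and 9.08 in beta-catenin cells (6.23-fold, adjusted p = 4.44e-05). Gbp3 read 5.19, 5.42 and 5.38 against 7.46, 7.69 and 7.79 (4.98-fold, adjusted p = 0.000702). Gbp7 read 6.28, 6.52 and 6.0 against 8.20, 8.42 and 8.27 (4.08-fold, adjusted p = 1.87e-05). These 3 guanylate-binding protein genes lie close together on chromosome 3 and are similar in sequence, so their probe sets may share signal. None of the 3 differed from ICAT cells by the contrast of the 2 lines (adjusted p = 0.323, 0.438 and 0.158), whereas 22 of the 35 interferon-stimulated genes were lower in beta-catenin than in ICAT cells, among them Ifit1, Rtp4 and Xaf1. Psmb8, a subunit of the immunoproteasome, rose 3.88-fold. Of 19 tested genes of antigen presentation 8 rose (42.1%, against 19.6% of all genes) and 2 fell (10.5%, against 15.4%). The 2 decreases, H2-Aa (-0.33) and H2-Ab1 (-0.34), belong to MHC class II. H2-Ab1 was not called without control replicate 1 or beta-catenin replicate 3 (adjusted p = 0.0657 and 0.0538).

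The Gbp promoters are printed because they hold the interferon-stimulated response element as GAAA, 2 bases of any kind and GAAA again, searched on both strands and shown here in capitals on the gene's strand, on GRCm38.p6 (RefSeq), 5′ to 3′.
Gbp2 (chr3:142620413-142620662, + strand): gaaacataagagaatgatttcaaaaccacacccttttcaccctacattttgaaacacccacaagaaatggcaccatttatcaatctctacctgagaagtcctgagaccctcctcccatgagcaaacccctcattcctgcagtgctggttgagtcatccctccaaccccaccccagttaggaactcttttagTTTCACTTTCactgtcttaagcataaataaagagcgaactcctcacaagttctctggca
Gbp3 (chr3:142559794-142560043, + strand): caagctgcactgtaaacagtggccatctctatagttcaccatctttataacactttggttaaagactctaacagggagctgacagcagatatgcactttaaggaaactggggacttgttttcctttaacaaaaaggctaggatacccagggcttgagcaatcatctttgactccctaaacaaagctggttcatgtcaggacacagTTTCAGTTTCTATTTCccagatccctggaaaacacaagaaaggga
Gbp7 (chr3:142530086-142530335, + strand): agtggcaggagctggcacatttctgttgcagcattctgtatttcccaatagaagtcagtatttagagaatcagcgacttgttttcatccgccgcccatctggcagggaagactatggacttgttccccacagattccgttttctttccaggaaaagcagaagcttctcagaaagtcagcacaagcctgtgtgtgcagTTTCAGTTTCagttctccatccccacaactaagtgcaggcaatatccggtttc
The first match starts at -59 in Gbp2, -45 in Gbp3, where a second one overlaps it at -39, and -53 in Gbp7. These letters were found in 2.56% of tested genes with a promoter sequence, in 4.56% of those that rose at least 2-fold (16 of 351) and in 2.59% of those that fell at least 2-fold (5 of 193). Most genes of either class did not hold them.

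Metabolic genes showed one group that fell. Of 34 tested hypoxia and glycolysis genes 17 fell and 3 rose (median log2 difference -0.30). Over all genes 15.4% fell and 19.6% rose, which is the background for each list in this paragraph. The glucose transporter gene Slc2a1 read 10.59, 10.70 and 10.58 in control and 8.91, 9.0 and 8.95 in beta-catenin cells, 3.20-fold lower (adjusted p = 2.49e-07). Adm, adrenomedullin, fell 3.32-fold from 8.21, 8.19 and 8.18 to 6.46, 6.47 and 6.46, and Ddit4, an inhibitor of mTORC1, 2.11-fold. All 3 increases were in phosphofructokinase genes or their regulator, Pfkp (3.42-fold), Pfkfb3 (2.83-fold) and Pfkm (1.48-fold), whereas the phosphofructokinase gene Pfkl fell by 0.62 on the log2 scale. Genes of amino acid synthesis and the ATF4 response also leaned lower. Of 34 tested, 11 fell (32.4%, against 15.4% of all genes) and 5 rose (14.7%, against 19.6%), none of them by 2-fold. Sterol and fatty acid genes had 11 of 40 higher and 8 lower (9 and 9 with centred arrays), with squalene epoxidase (Sqle) 1.79-fold higher and stearoyl-CoA desaturase (Scd1) 1.45-fold lower. Apoc2, an activator of lipoprotein lipase, fell 22.2-fold, from 9.54, 9.63 and 9.63 to 5.23, 5.13 and 5.02, and was also low on the ICAT arrays, at 5.25, 5.18 and 4.96.

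Detoxification genes changed in both directions within enzyme families. Of 46 tested genes of the NRF2, glutathione and detoxification list 17 rose (37.0%) and 12 fell (26.1%), 7 and 1 of them at least 2-fold. Over all genes 19.6% rose and 15.4% fell. Mgst1, a membrane glutathione transferase, read 7.37, 7.31 and 7.29 in control and 11.54, 11.61 and 11.37 in beta-catenin cells, 18.2-fold higher (adjusted p = 8.47e-07), while its relative Mgst3 fell 3.57-fold, from 10.19, 10.22 and 10.20 to 8.28, 8.50 and 8.33. Gstm2 rose 4.33-fold and Gsta4 3.15-fold, and Gsto1 fell 1.86-fold. The carbonyl reductase gene Cbr3 rose 12.2-fold, from 6.40, 6.38 and 6.42 to 9.84, 10.08 and 10.10. The NADPH oxidase subunit gene Cyba rose 10.4-fold. Of the usual NRF2 targets, Nqo1 and Hmox1 rose by 0.84 and 0.62 on the log2 scale, and Gsr fell by 0.79.

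Cell cycle genes changed little in size. Of 39 tested G1/S and replication genes 14 rose (35.9%) and 7 fell (17.9%), none of them by 2-fold. Of 44 mitotic genes 9 rose (20.5%) and 7 fell (15.9%), near the 19.6% and 15.4% of all genes, and none by 2-fold. With centred arrays the counts became 11 and 11, and 8 and 9. Larger differences were seen in regulators of G1. Ccnd1, cyclin D1, read 12.62, 12.66 and 12.61 in control and 11.22, 11.27 and 11.42 in beta-catenin cells, 2.51-fold lower (adjusted p = 1.21e-07), and the kinase inhibitor genes Cdkn2b and Cdkn1a fell 2.31-fold and 2.25-fold, while Cdkn1c rose 2.61-fold. Both other Ccnd1 probe sets fell. Ribosome biogenesis genes had 20 of 59 lower (33.9%, against 15.4% of all genes) and 5 higher (8.47%, against 19.6%), all under 2-fold. Of 26 tested p53 target genes 9 rose (34.6%) and 6 fell (23.1%), against 19.6% and 15.4% of all genes. The largest increases were those of Trp53inp1 (3.40-fold) and the death receptor gene Fas (3.32-fold).

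Transcription factor and progenitor genes were rearranged. Gli2, an effector of Hedgehog signalling, read 6.32, 5.98 and 6.33 in control and 9.04, 8.87 and 9.01 in beta-catenin cells, 6.80-fold higher (adjusted p = 4.03e-08). Gli3 rose 1.93-fold and the Hedgehog co-receptor gene Cdon 2.49-fold, whereas the pathway's readout Gli1 was not called (adjusted p = 0.699). Ptch1, another readout, differed by 0.26 (adjusted p = 0.0684, or 0.0093 with the 6 arrays alone). The Notch ligand gene Dll1 fell 2.24-fold. Foxc2, a mesenchymal forkhead factor, fell 4.77-fold, from 9.29, 9.20 and 9.28 to 6.75, 7.03 and 7.23, and Foxq1 rose 2.41-fold. Sox2, a stem cell factor, read 10.30, 10.35 and 10.26 in control and 9.14, 9.19 and 9.22 in beta-catenin cells, 2.17-fold lower. Of 20 tested markers used for tumour-initiating cells 4 rose (20%, near the 19.6% of all genes), 6 fell (30.0%) and 10 were not called. Dclk1, a microtubule-associated kinase, read 5.41, 5.83 and 5.64 against 10.03, 10.10 and 10.08, 21.7-fold higher (adjusted p = 3.93e-09), with 6 of 7 other probe sets also higher. Cd24a rose 2.50-fold and Abcg2 2.0-fold, and Itga6, Alcam, Sox2, Met, Cd44 and Klf4 fell. Zinc finger genes, taken by symbol, had 91 of 313 (29.1%) rising and 25 (7.99%) falling, against 19.6% and 15.4% of all genes, and 80 and 38 with centred arrays. Almost all were small changes, 9 rising and 2 falling by 2-fold.

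Cytoskeletal, transport and lysosomal genes gave further single large changes. Tubb2b rose at least 15.9-fold, from 4.99, 4.97 and 4.92 to 9.18, 8.95 and 8.83, and Tubb3, another neuronal beta-tubulin, 4.30-fold. The small heat shock protein gene Hspb1 read 9.27, 9.12 and 9.14 in control and 13.09, 13.09 and 13.07 in beta-catenin cells, 15-fold higher (adjusted p = 3.67e-10). The filopodial motor gene Myo10 rose 3.77-fold and was not called in ICAT cells. The largest decrease of all was in Slc14a1, a urea transporter, from 11.57, 11.43 and 11.48 to 5.26, 5.88 and 5.47, 61.9-fold (adjusted p = 4.98e-10), and its other probe set fell too. In the whole solute carrier family the counts were near the background, 43 of 271 higher and 49 lower. Cnr1, the cannabinoid receptor, fell 13.0-fold and Lepr, the leptin receptor, 6.6-fold, though the other Cnr1 probe set was not called. Lysosomal protease genes fell by more than 2-fold in 3 cases, Ctsc (5.54-fold), Ctsh (2.85-fold) and Ctsl (2.30-fold, from 13.99, 13.86 and 13.92 to 12.67, 12.76 and 12.73). Complex I subunits of the respiratory chain were often slightly higher, 15 of 33 (45.5%, against 19.6% of all genes) with 4 lower (12.1%, against 15.4%), none by 2-fold.

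Calls were spread unevenly over the chromosomes, a grouping made after the values were seen and placed with RefSeq on GRCm38.p6. Over the 15127 tested genes placed on chromosomes 1 to 19 or X, 19.7% rose and 15.4% fell. On chromosome 17, 6.18% of 744 genes rose and 32.3% fell, and on chromosome 12, 6.63% of 528 genes rose and 32.4% fell. On X 37.0% of 446 genes rose and 10.3% fell, with 47 of them rising at least 2-fold, and chromosomes 3, 15 and 11 followed with 33.4%, 29.0% and 28.9% higher. Each beta-catenin array showed the same lean. The median deviation from the control mean on chromosome 17 was -0.12, -0.14 and -0.14 on the 3 beta-catenin arrays, and on chromosome 12 it was -0.11, -0.14 and -0.15. In ICAT cells chromosome 12 leaned the other way, with 25.8% higher and 10.6% lower. X and chromosome 3 had the largest shares higher of all chromosomes in ICAT cells (33.4% and 30.8%). Chromosome 17 had 13.0% higher and 25.1% lower in ICAT cells and stood out less there. Chromosome 19 had more genes lower (27.6%), and chromosomes 8 and 10 nearly as many (23.4% and 23.1%). With arrays centred on their medians 38 genes rose and 303 fell on chromosome 17, 24 and 213 on chromosome 12, and 157 and 62 on X. Xist, on X, was called lower in beta-catenin cells (log2 difference -1.23) and differed from control by 2.84 in ICAT cells. Whether it bears on the lean of X was not tested, and chromosome copy number was not measured here.

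**Figure D3:**
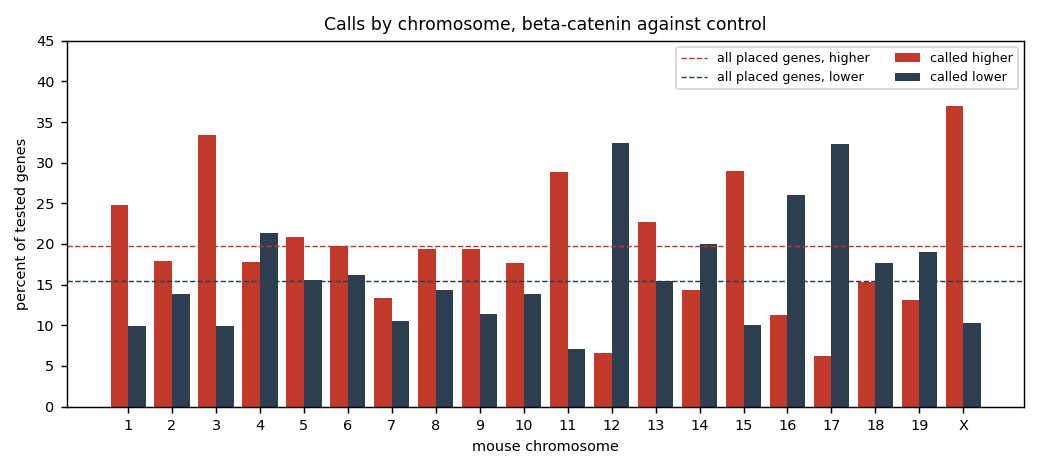
Percent of tested genes on each mouse chromosome called higher (red) and lower (dark) in beta-catenin cells, with dashed lines at the shares over all placed genes. Chromosomes 12 and 17 have 32.4% and 32.3% of genes lower with under 7% higher, and X, 3, 15 and 11 have the highest red bars.

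Some of this was concentrated in stretches of neighbouring genes. Among tested genes in chromosomal order the longest run called in 1 direction held 14 genes on chromosome 15, from Derl1, a component of endoplasmic reticulum protein disposal, to Mtss1, and all rose. Their median log2 difference was 0.76, with medians over the run of 0.73, 0.78 and 0.79 on the 3 beta-catenin arrays, against 0.24 in ICAT cells. Zhx1 rose 2.70-fold, Wdyhv1 2.24-fold, Tmem65 1.96-fold and Ndufb9 1.92-fold, and the chromatin factor gene Atad2 rose 1.74-fold, though with the median of their probe sets Atad2 and Mtss1 were not called (adjusted p = 0.356 and 0.465). The window of 25 neighbouring tested genes with the highest median difference outside X, picked by these values, ran from Ext1 to Ndufb9 and overlaps this run. Of its genes 21 rose, including Dscc1 (2.58-fold) and Taf2 (2.14-fold), and 1 fell. That gene, Zhx2, lost its call when control replicate 2, beta-catenin replicate 1 or beta-catenin replicate 3 was left out (adjusted p = 0.0948, 0.0601 and 0.0818 in limma). Myc, which lies 8 tested genes beyond Mtss1, rose 1.36-fold. A run of 9 on X, from Maged2 to Hsd17b10, rose by a median of 0.84, and a run of 8 on chromosome 12, from Mgat2 to Arf6, had a median of -0.38. Only 7 runs held 7 or more genes.

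Of all windows of 25 neighbouring tested genes, the one with the highest median difference lay on X and the one with the lowest on chromosome 19. These windows were picked by the same values, so their medians and one-sided counts follow largely from the choice. On X, from Pcdh19 to Tceal9, 15 rose and 1 fell, and the median was 0.88. The Armcx genes, for mitochondrial armadillo proteins, rose except Armcx6 (Armcx3 7.74-fold, from 7.24, 7.21 and 7.38 to 10.15, 10.28 and 10.25, and Armcx4 5.24-fold), as did Gprasp1, Tceal8 and Tceal9. Between them Bhlhb9, a relative of the same armadillo family, did the reverse, from 8.70, 8.76 and 8.74 to 4.04, 4.66 and 4.24, at least 13.3-fold lower (adjusted p = 1.01e-09), and it was not called in ICAT cells. On chromosome 19, from Neurl1a to Zdhhc6, 16 fell and none rose at an adjusted p under 0.05 (limma; 0 rose at an unadjusted p under 0.05), although Neurl1a was called higher with the median of its probe sets (0.40, adjusted p = 0.0118), and the median was -0.61 (-0.63, -0.59 and -0.54 on the 3 beta-catenin arrays, -0.11 in ICAT cells). This stretch holds Dusp5 of the ERK feedback group, together with Shoc2, for a scaffold protein upstream of ERK, which fell by 0.66 on the log2 scale, together with Gsto1, Gsto2, Slk, Smc3 and Mxi1, an antagonist of MYC.

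**Figure D4:**
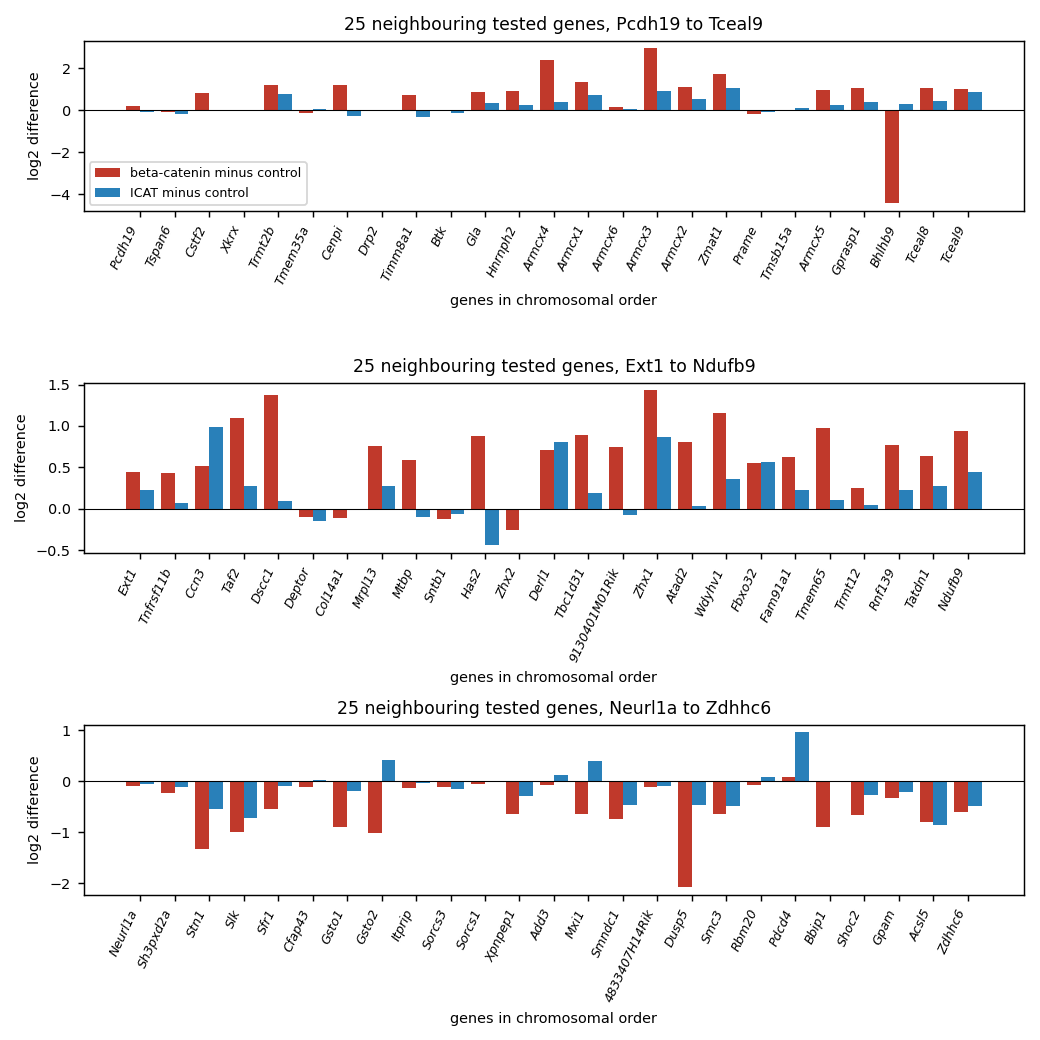
Log2 difference from control of 25 neighbouring tested genes in 3 stretches, in chromosomal order, for beta-catenin cells (red) and ICAT cells (blue). The stretches were picked for the highest median beta-catenin difference, the highest outside X and the lowest. Most red bars lie above 0 in the upper and middle stretches, where Bhlhb9 and Zhx2 were called lower (Bhlhb9 below log2 5 in beta-catenin cells, so that its bar is drawn from values under the limit), and no red bar lies above 0.09 in the lower stretch, where Dusp5 is lowest at -2.07.

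The ICAT line shares the control arrays, so the same control values enter both comparisons, and the test of a difference is the contrast between the 2 transfected lines. By that contrast 40.4% of all tested genes were called, 22.5% higher and 17.9% lower in beta-catenin cells. Of the 458 genes that rose at least 2-fold 339 (74.0%) lay above the ICAT level, 85 were not called against ICAT and 34 were higher still in ICAT cells. Of the 246 that fell at least 2-fold 233 (94.7%) lay below the ICAT level, 13 were not called and none was lower in ICAT cells. Against control, ICAT cells were called in the same direction for 364 of the 458 and for 108 of the 246, and in the opposite direction for 5 and 52. Among the large contrasts, Sprr1b was at least 23-fold higher in beta-catenin than in ICAT cells, Slc6a15, a neutral amino acid transporter that rose 5.43-fold against control and fell in ICAT cells, 12.8-fold, and Selp 11.8-fold. In the other direction Dkk2 was 45.7-fold and Slc14a1 30.7-fold lower than in ICAT cells, Mmp13 at least 29.4-fold and Bhlhb9 at least 16.3-fold. Bnc1, basonuclin 1, and Itgb8 fell below the limit in beta-catenin cells and rose in ICAT cells. Genes at a like distance from control in both lines included Apoc2, the receptor gene Pdgfra, Fstl1 and Gstm2, none of which was called between the lines, and with 3 arrays a group such a miss does not show that the levels are equal.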

How the data were processed

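RNA of 9 cultures, 3 per group, was hybridised to Affymetrix mouse expression arrays. The deposited values are log2 expression per probe set, made by the authors with RMA in affy, per the submitters' processing notes, with no version given there. RMA shares information across arrays and compresses low values. Probe sets were named from GEO's platform annotation with symbols updated through RefSeq (GRCm38.p6): of 45037 probe sets 34945 had 1 symbol, 932 several and 9160 none, and 204 of those with 1 had no RefSeq match and kept the old symbol. Each gene was represented by its brightest single-gene probe set over the 9 arrays, and genes with log2 of at least 5 on 3 or more arrays were tested. One model with a mean for each group was fitted to the 9 arrays in limma 3.58.1 (R 4.3.3), with moderated tests and Benjamini-Hochberg adjustment, and called means an adjusted p below 0.05. With 3 against 3 arrays an exact permutation test cannot go below 0.1. No array pair was identical, and the array medians lay between 6.21 and 6.29. The fit was tested on simulated data in which far fewer genes were changed than were called here, and 5.06% of its calls there were false.

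A fold is 2 to the power of the log2 difference, and where a group mean was under log2 5, values below 5 were raised to 5, which makes the fold a bound. Named genes were the largest changes passing the test without overlap of arrays, the largest called members of each list, and the largest differences from ICAT, and further genes were added after their values were seen. The members and lists were chosen with earlier results of these data known, and chromosomes, runs and windows of genes were examined after the values were seen.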

Additional observations from a re-analysis of the deposited data

How the results depend on the processing

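The number of genes called was 5321 in the model of 9 arrays. It was 6658 with the 6 arrays alone, 5274 without a filter on low values, 5058 with log2 of at least 7 on 3 or more arrays, 4706 with the median of all probe sets of a gene, 5776 with centred arrays, 5494 with an intensity trend and robust estimation, and 4285 to 4780 when 1 array was left out. With array weights it was 8324, of which 4188 were lower. The genes gained over the limit of log2 5 numbered 9 rather than 15 with the filter at 7. Same-numbered samples were not paired by their deviations (correlations 0.109, -0.00151 and 0.121), and the fit with the replicate number as a block called 5524 genes, 3054 higher and 2470 lower. The sign turned with the median of all probe sets for Cemip (-0.02), Col3a1 (0.04), Fzd6 (-0.02), H2-Aa (0.06) and Neurl1a (0.40, then called higher at an adjusted p of 0.0118 in limma). In simulated data of 15235 genes 16% of 1.2-fold, 84% of 1.5-fold and 100% of 2-fold changes were recovered with 3 arrays a group. Far fewer genes were changed in the simulation than were called here, which makes the adjusted threshold stricter there. These shares therefore do not give the recovery of small changes in the real fit. The limit of log2 5 is a chosen one, and a fold against a group under it is a bound.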

Other observations

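Other groups of genes, taken by symbol or from the lists, were read against the shares over all tested genes, 19.6% higher and 15.4% lower. Of 25 tested serpins, inhibitors of serine proteases for the most part, 6 rose and 3 fell (5 and 5 with arrays centred on their medians), and 4 rose at least 2-fold, with Serpinf1, the anti-angiogenic factor PEDF, 15.2-fold higher (7.67, 7.69 and 7.78 in control and 11.77, 11.67 and 11.50 in beta-catenin cells). Of 21 tested complement and acute-phase genes 6 rose and 1 fell. The complement protease gene C1ra was 3.13-fold higher. Of 34 tested forkhead factor genes 13 rose and 5 fell. Of 22 tested YAP target genes 11 rose and 5 fell. The mitochondrial ribosomal protein genes had 17 of 73 higher and 9 lower (13 and 16 with centred arrays), and the proteasome genes 11 of 45 and 6. Of 48 tested cytochrome P450 genes 8 rose and 2 fell, or 4 and 4 with centred arrays.

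Pwwp3b, a PWWP-domain gene on X, rose 16.1-fold, from 7.54, 7.65 and 7.58 to 11.71, 11.52 and 11.58, and was among the largest increases on that chromosome.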
